A study of Mus musculus with 7 samples.

Results

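The conjugating enzymes of the liver were followed here through 57 targets of the probe panel, chosen by name alone: every target whose symbol starts with Ugt, Sult or Gst followed by a class letter or number. They are 20 glucuronosyltransferases (Ugt), 17 sulfotransferases (Sult) and 20 glutathione transferases (Gst), out of 19951 gene targets. RNA had been counted in 6 regions of preserved liver, 3 regions of mice on the NCD diet and 3 of mice on the FFD diet. The labels give the names NCD and FFD in a field called genotype. All mice were 24 weeks old. Both diets share what the labels state of the sampling: liver tissue, 1 slide, and regions drawn on Albumin staining and not on CLEC4F, a Kupffer cell protein. Comments in the deposited region table carry the letters WT, while strain and sex are not given in the sources used here. Bar-coded probes bound to RNA in each region were cut loose by light and counted by sequencing (the GeoMx method). The series names 3 mice per diet without tying a region to a mouse, so the p-values measure the spread between regions.

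Each family makes small, often fat-soluble molecules easier to excrete by joining a polar group to them. Glucuronosyltransferases sit in the endoplasmic reticulum and take glucuronic acid from UDP-glucuronic acid, sulfotransferases of the cytosol take sulfate from the donor PAPS, and glutathione transferases join the tripeptide glutathione to reactive compounds. In liver their substrates include bilirubin, bile acids, steroid and thyroid hormones, drugs and products of lipid peroxidation.

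Regions held 2069102 to 3491371 counts over the 13095 genes tested. Of the counts over all 19951 gene targets, the 57 targets took 1.52 to 1.63% in NCD regions and 0.873 to 1.01% in FFD regions. Levels are CPM, a region's counts as a share of its library size after scaling by the 75th percentile, and every target rests on 1 probe, so levels are compared between regions and not between targets. A level was taken as detected above 2 times the negative probe level, a limit of 25.5 to 28 CPM in NCD regions and 18.2 to 21.8 CPM in FFD regions. Of the 57 targets 32 lay above this limit in all 6 regions and 18 under it in all 6. All 13 hepatocyte marker genes examined were above it in every region, as was Clec4f, at 70.8 to 172 CPM. Count sums exceeded the deduplicated reads of the region table by factors of 1.2 and 1.51 in FFD regions 1 and 2, against 0.996 to 1.01 in the other regions, so values with FFD region 3 as the only FFD region are given where they matter.

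Most calls were of Ugt targets, and the changes largest in size were those of the sulfotransferase Sult2a8 and the glutathione transferase target Gstp1. The deposited filtered table kept 41 of the 57 targets, 13 Ugt, 9 Sult and 19 Gst, and these entered the test across all 13095 genes. In edgeR's quasi-likelihood test with Benjamini-Hochberg adjustment over all of them, 11 were lower in FFD regions and 1 was higher at an adjusted p under 0.05. By the same call 11.1% of all genes tested were lower and 5.94% were higher. The 3 FFD regions lay wholly below the 3 NCD regions for 17 of the 41 targets and wholly above them for 2, against 24.5% and 12.2% of all genes tested.

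**Figure D1:**
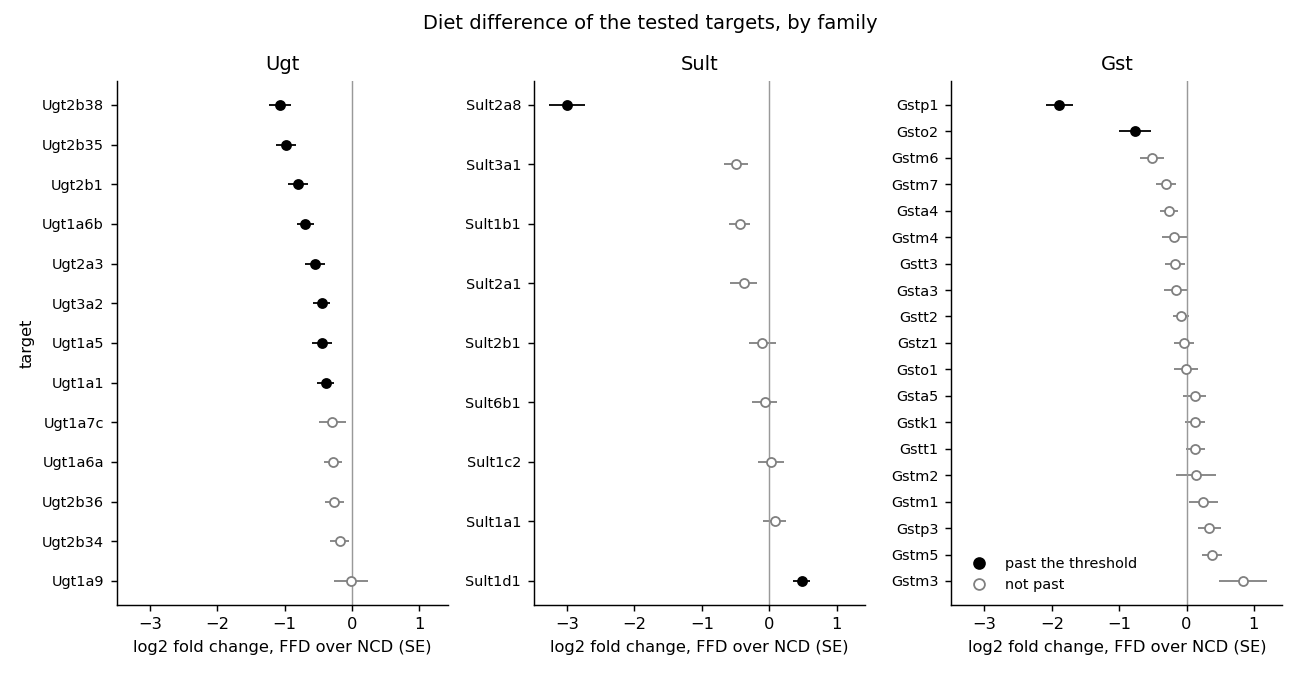
Log2 fold change (FFD over NCD) of each tested target, one panel per family, with horizontal lines of 1 SE and filled points for targets past the adjusted p threshold of 0.05. All 13 Ugt targets lie left of 0, while Sult2a8 at -3.00 and Gstp1 at -1.89 stand apart from the other members of their families.

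Of 13 glucuronosyltransferase targets tested, 8 were lower in FFD regions, 0 were higher and 5 did not pass, and the count of 8 fell to 4 or fewer under several scalings. Unadjusted p-values under 0.05, the DESeq2 Wald test and limma trend also gave 0 higher, and DESeq2 and limma called 4 and 7 lower. The 13 log2 fold changes were all negative, from -1.07 to -0.01 with a median of -0.44, beside a median of -0.11 over all genes tested. In 10 of the 13 the 3 FFD regions lay below all NCD regions. The summed level of all 20 Ugt targets was 3387, 3403 and 3305 CPM in NCD regions and 2077, 1903 and 2290 CPM in FFD regions. Here as below, fewer cells of a type and less RNA per cell cannot be told apart.

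The signs of these changes depend on the scaling between regions, which shifts all genes alike. With total counts, TMM or DESeq2 size factors, 12 of 13 Ugt changes were negative, and with negative probes as the scale 7 of 13. The median of all genes itself moved to 0.28 with negative probe scaling. Without a filter the Ugt median was -0.39, beside -0.05 over the 13095 genes of the main test. Background subtraction moved the Ugt median minus the median of all genes from -0.34 to -0.54. With FFD region 3 as the only FFD region that difference was -0.25.

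The Ugt2 genes lie together on mouse chromosome 5, between 86889770 and 87490871 on GRCm38.p6, and act on steroids, bile acids and many drugs. Ugt2b38 is a target shared with Ugt2b5 in the deposited annotation, so its signal cannot be split between the genes. Its level was 1442, 1461 and 1229 CPM in the NCD regions and 668, 566 and 732 CPM in the FFD regions. Every FFD region was thus far below every NCD region, and the log2 fold change was -1.07 (SE 0.16, n = 3 regions per diet, adjusted p 0.000521, edgeR), a 2.1-fold fall. This one target carried 40.9 ± 3.22% (SD, n = 3) of Ugt counts in the NCD regions and 31.3 ± 1.34% in FFD regions.

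Ugt2b35 (chr5:87000860-87013274) was at 230, 188 and 194 CPM in NCD regions and at 116, 88.2 and 108 CPM in FFD regions. Its regions did not overlap between the diets, with a 1.97-fold fall (log2 fold change -0.98, SE 0.15, adjusted p 0.000428 with edgeR). Ugt2b1 (chr5:86916639-86926503), a general drug and steroid conjugating enzyme of rodent liver, was at 283, 291 and 363 CPM in NCD regions against 167, 178 and 196 CPM in FFD regions. Its groups were also apart, and its log2 fold change was -0.80 (SE 0.15, adjusted p 0.00201 with edgeR). That call was lost with negative probe scaling (adjusted p 0.0989) and with FFD region 3 as the only FFD region (0.0589).

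Ugt2b36 and Ugt2b34 lie in the same cluster and did not pass the test. The level of Ugt2b36 was 332 CPM on average in NCD regions and 277 CPM in FFD regions, with regions that did not overlap, and the log2 fold change was -0.26 (SE 0.14, adjusted p 0.208). For Ugt2b34 the log2 fold change was -0.18 (SE 0.14, adjusted p 0.401). Counts of Ugt2b38 over counts of Ugt2b36 were 4.3, 4.23 and 3.9 in NCD regions and 2.44, 2.32 and 2.35 in FFD regions. Such a ratio within a region needs no scaling between regions, and here every FFD value lay below every NCD value. The pair was picked after its values were seen and was not tested.

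Ugt2a3 (chr5:87324972-87337195), an enzyme known from human tissue to act on bile acids, was at 164 ± 25.3 CPM in NCD regions and 112 ± 14 CPM in FFD regions (log2 fold change -0.55, SE 0.15, adjusted p 0.0205). Ugt3a2 on chromosome 15 (9335551 to 9370955), whose human counterpart uses sugars other than glucuronic acid, was at 152 ± 7.84 against 111 ± 8.83 CPM (log2 fold change -0.45, SE 0.13, adjusted p 0.027). The regions of both targets did not overlap between the diets. Both calls were fragile: Ugt2a3 kept its call in 10 and Ugt3a2 in 6 of 18 alternative analyses, while Ugt2b38 and Ugt2b35 kept theirs in all 18.

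The Ugt1a genes share one locus on chromosome 1, from 88055411 to 88220002, where each has its own first exon and all use the same last exons. Which exons each probe covers is not given in the sources used here, so reads of one Ugt1a target may come from a relative. Of 9 Ugt1a targets 6 were tested and 3 were lower in FFD regions. Ugt1a6b, of the pair that conjugates planar phenols, was at 153, 161 and 144 CPM in NCD regions and 91.5, 88.2 and 104 CPM in FFD regions. All NCD regions were above all FFD regions, and the log2 fold change was -0.69 (SE 0.13, adjusted p 0.0026 with edgeR). The same 2 alternatives ended this call, with adjusted p-values of 0.181 and 0.0898.

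Its close relative Ugt1a6a was at 139, 162 and 155 CPM against 119, 119 and 138 CPM. These values also did not overlap, but the log2 fold change of -0.28 (SE 0.13) did not pass the test, with an adjusted p of 0.152. Counts of Ugt1a6b over counts of Ugt1a6a were 1.11, 0.992 and 0.925 in NCD regions and 0.772, 0.741 and 0.758 in FFD regions, a description chosen after the values were seen.

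Ugt1a1, the enzyme that conjugates bilirubin, was at 86.5, 77 and 95.3 CPM in NCD regions and 63.7, 68 and 66.6 CPM in FFD regions. The groups were apart, and the log2 fold change of -0.39 (SE 0.13) passed the test narrowly with an adjusted p of 0.0487. With negative probe scaling the value was 0.01, and the call held in only 2 of 18 alternatives. Ugt1a5 was at 55.6 ± 2.53 CPM in NCD regions and 41 ± 8.48 CPM in FFD regions (log2 fold change -0.44, SE 0.15, adjusted p 0.0495), a call that held in 4 of 18 alternatives.

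Ugt1a9, which conjugates bulky phenols, gave a log2 change of -0.01 (SE 0.25, adjusted p 0.988), with FFD regions at 43.1, 22.4 and 61.4 CPM around NCD regions at 41.3, 37.4 and 45.8 CPM. Ugt1a7c was under the detection limit in all 6 regions and did not pass. Among the 7 Ugt targets outside the filtered table, Ugt1a2 was above the limit in 2 NCD regions and no FFD region, at 27.2, 30.3 and 26.7 CPM against 8.77, 17.5 and 16.5 CPM. When all genes were tested without a filter its log2 fold change was -0.90 with an adjusted p of 0.005. Ugt1a10 was above the limit in 1 FFD region, and Ugt1a8, Ugt2a1, Ugt2a2, Ugt2b37 and Ugt8a, the galactosyltransferase of myelin lipids, were above it in none.

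Promoter sequence from RefSeq (GRCm38.p6, 250 bases before to 50 after a gene's start) was available for 55 of the 63 genes behind the 57 targets, with 66 promoters in all. The HNF1 half-site pattern, GTTAATNAT, which covers only part of the sequence that this hepatocyte factor recognizes, was searched on both strands. It was found in 8 of these 66 promoters and in 0.801% of all 32851 promoters of the table. Several of the 8 belong to close relatives with nearly the same window, such as the Sult2a genes below, so they are not separate occurrences. The share was not tested. The Ugt1a genes with a match are Ugt1a1, which was lower in FFD regions, Ugt1a9, which did not pass, and Ugt1a10, which was not tested. The windows are shown 5′ to 3′ on the gene's strand because a match was shared by Ugt1a genes that did and did not pass, with capitals marking the match, here the reverse complement of the pattern, and its first base 44, 94 and 74 bases before the gene start.
Ugt1a1, chr1:88211899-88211938, plus strand: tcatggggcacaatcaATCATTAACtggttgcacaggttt
Ugt1a9, chr1:88070669-88070708, plus strand: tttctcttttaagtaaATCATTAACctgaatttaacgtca
Ugt1a10, chr1:88055321-88055360, plus strand: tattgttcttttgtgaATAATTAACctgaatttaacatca
A match is a string of letters and was not tested as a binding site.

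In the sulfotransferase family 1 target fell, 1 rose and 7 of the 9 tested did not pass, so the counts lie near those of all genes. The median log2 fold change was -0.10, beside -0.11 over all genes tested. The fall of Sult2a8 was the largest in size among the 41 tested targets, and the rise of Sult1d1 was the only one to pass. Sult targets were also the least often detected family: 3 of 17 were above the limit in all 6 regions and 10 under it in all 6.

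Sult2a8 (chr7:14410686-14446780) is a hydroxysteroid sulfotransferase of mouse liver that adds sulfate to bile acids. It was at 874, 850 and 928 CPM in NCD regions and at 114, 160 and 56.2 CPM in FFD regions. The lowest NCD region was several-fold above the highest FFD region, and FFD region 3 was the lowest of all. The log2 fold change was -3.00 (SE 0.27, adjusted p 3e-06 with edgeR), an 8.01-fold fall from 884 ± 40.4 to 110 ± 51.8 CPM (SD, n = 3). It was called lower in all 18 alternatives, from -3.97 with FFD region 3 as the only FFD region to -2.58 with negative probe scaling, and was -2.69 without FFD region 3.

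Sult2a8 made up 61.8 ± 1.61% of Sult counts in the NCD regions and 16.2 ± 6.57% in FFD regions. The summed level of the other 16 Sult targets was 548 ± 62.3 CPM under NCD and 557 ± 17.3 CPM under FFD, a difference within the spread between regions. Most of these targets were under the limit in every region, so the sum is partly background. The negative probe level was itself lower in FFD regions, at 9.1 to 10.9 CPM against 12.7 to 14 CPM in NCD regions. The other Sult2 targets, which also conjugate hydroxysteroids, were at background: Sult2a1, Sult2a2, Sult2a5 and Sult2b1 were under the limit in all 6 regions. Sult2a1 is a target shared by Sult2a1, Sult2a3, Sult2a4 and Sult2a6, with a log2 change of -0.38 (SE 0.20, adjusted p 0.193). Sult2a5 is a target shared by Sult2a5 and Sult2a1, so Sult2a1 is covered by both.

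Sult1d1 (chr5:87554650-87569006) conjugates catecholamines and small phenols. Its levels were 86.5, 93.4 and 104 CPM in NCD regions and 122, 146 and 128 CPM in FFD regions. Every FFD region was above every NCD region, and the log2 fold change was 0.48 (SE 0.13, adjusted p 0.0245 with edgeR), a 1.39-fold rise. The call was lost without NCD region 1, NCD region 2 or FFD region 2, and with FFD region 3 as the only FFD region, where the adjusted p reached 0.162. Over the 18 alternatives the adjusted p ran from 0.000641 to 0.162.

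Sult1a1, the main phenol sulfotransferase, gave a log2 change of 0.08 (SE 0.17, adjusted p 0.788), from 178, 169 and 273 CPM in NCD regions to 200, 217 and 240 CPM in FFD regions. Sult1b1, which acts on thyroid hormone, was at 29.2, 27.8 and 34.8 CPM against 21.7, 22.1 and 24.5 CPM, close to the limit. Its groups were apart, but its log2 fold change of -0.44 (SE 0.16) had an adjusted p of 0.0625. The same holds for Sult3a1, an amine sulfotransferase, with -0.49 (SE 0.18) and an adjusted p of 0.0657. Of the other tested targets, Sult1c2, Sult2b1 and Sult6b1 had log2 fold changes from -0.10 to 0.03.

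The 8 Sult targets outside the filtered table were Sult1c1, Sult1e1, Sult2a2, Sult2a5, Sult3a2, Sult4a1, Sult5a1 and Sult6b2. Only Sult5a1 rose above the limit anywhere, in 1 NCD and 1 FFD region. Sult1e1, the estrogen sulfotransferase, was at 8.15 to 16.5 CPM in NCD regions and 8.42 to 15.6 CPM in FFD regions, so no difference was detectable at this depth. Sult4a1, known mainly from brain, was likewise under the limit.

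The HNF1 pattern was also present in the promoters of Sult1d1 and of 4 Sult2a genes, and in none of the promoters given for Sult2a8. The windows are shown because they set the riser Sult1d1 beside the Sult2a relatives whose targets were at background, with the match in capitals, on the gene's own strand.
Sult1d1, chr5:87569062-87569101, minus strand: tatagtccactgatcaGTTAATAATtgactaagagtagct
Sult2a3, chr7:14123076-14123115, minus strand: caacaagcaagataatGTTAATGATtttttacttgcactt
Sult2a4, chr7:13989672-13989711, minus strand: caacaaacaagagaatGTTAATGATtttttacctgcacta
Sult2a5, chr7:13623923-13623962, plus strand: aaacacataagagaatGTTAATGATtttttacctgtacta
Sult2a6, chr7:14254918-14254957, minus strand: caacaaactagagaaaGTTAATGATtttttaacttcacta
The first matched base lay 79 bases before the start of Sult1d1 and 28 to 107 bases before those of the Sult2a genes.

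**Figure D2:**
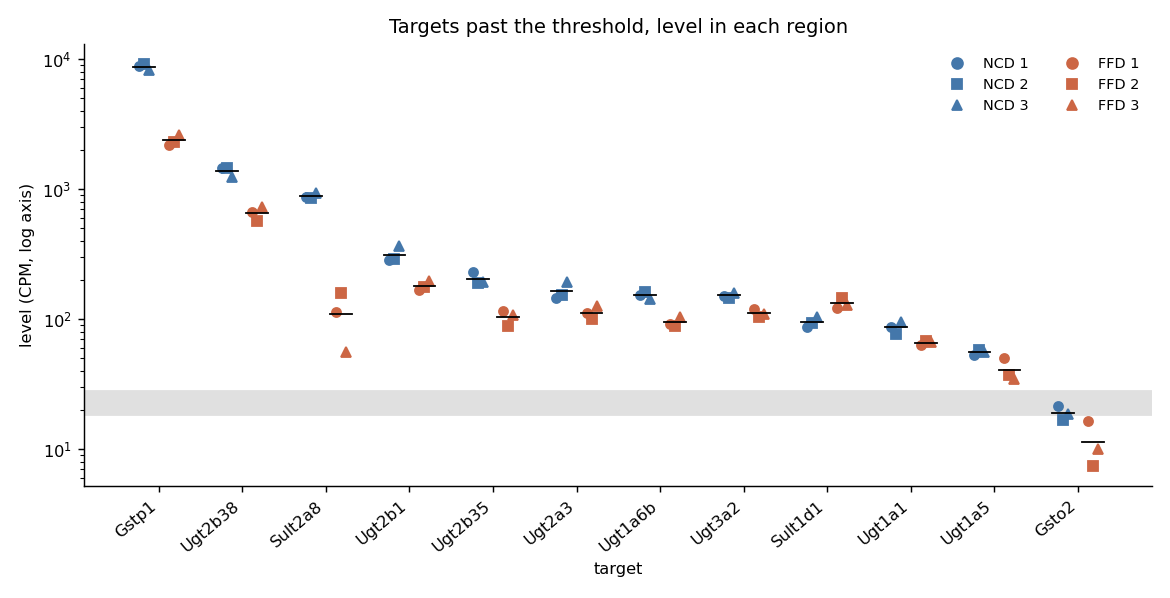
Level (CPM, log axis) in each of the 6 regions of the 12 targets past the threshold, with short lines at the mean of each diet and a grey band over the detection limits of 18.2 to 28 CPM. Sult2a8 falls from 850 or more to 160 CPM or less, Sult1d1 is the only target with FFD above NCD, and Gsto2 lies in or under the band.

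Among glutathione transferase targets the fall of Gstp1 stood alone: 17 of 19 tested targets did not pass, 0 were higher, and the second call was Gsto2, under the detection limit in all 6 regions. At an unadjusted p under 0.05 Gstm3 and Gstm5 were higher, while DESeq2 and limma called 0 higher. The median log2 fold change of the 19 was -0.04, beside -0.11 over all genes, and 2 calls in 19 lie near the share of all genes called lower. With negative probe scaling 3 of the 19 changes were negative in place of 11, and the median was 0.34 beside 0.28 over all genes.

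Gstp1 (chr19:4035411-4037912) is the Pi class enzyme, which conjugates a wide range of electrophiles and is known to be higher in the liver of male than of female mice. The target is shared with Gstp2 in the deposited annotation, and the genes lie side by side. Its levels were 8808, 9128 and 8241 CPM in NCD regions and 2169, 2314 and 2602 CPM in FFD regions. The diets were far apart and the regions of each diet close together, with a log2 change of -1.89 (SE 0.20, adjusted p 1.68e-05 with edgeR), a 3.7-fold fall. The call held in all 18 alternatives, from -1.96 to -1.49, and was -1.75 with FFD region 3 as the only FFD region.

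The 120 bases before the starts of Gstp1 and Gstp2 are shown because one probe target reports on both genes, and a reader can see how alike their promoters are. Capitals in the Gstp2 line mark bases that do not align to an identical Gstp1 base, and 88 of its 120 bases (73.3%) are identical.
Gstp1, chr19:4037913-4038032, minus strand: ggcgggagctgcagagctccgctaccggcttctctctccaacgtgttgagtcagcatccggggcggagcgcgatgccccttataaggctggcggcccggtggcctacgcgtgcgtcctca
Gstp2, chr19:4042222-4042341, minus strand: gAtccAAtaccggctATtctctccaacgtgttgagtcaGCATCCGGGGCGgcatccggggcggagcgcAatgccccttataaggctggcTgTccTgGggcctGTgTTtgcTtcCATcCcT
The neighbouring Gstp3 has a target of its own, at 29.2, 26.1 and 41.4 CPM in NCD regions and 47.7, 41.1 and 35.3 CPM in FFD regions. These overlapped, with a log2 change of 0.34 (SE 0.17, adjusted p 0.191).

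Gstp1 made up 65.1 ± 2.89% of Gst counts in the NCD regions and 32.7 ± 4.74% in FFD regions. Without it, the summed level of the other 19 Gst targets was 4450, 4498 and 5108 CPM in NCD regions and 5598, 3871 and 5362 CPM in FFD regions, which overlap. The share of Gstm1 went from 14.4 ± 0.775 to 31.1 ± 5.3% of Gst counts while its own level did not pass the test. Counts of Gstp1 over counts of Gstm1 were 4.6, 4.9 and 4.05 in NCD regions and 0.81, 1.5 and 0.967 in FFD regions. Gstp1 counts thus exceeded those of Gstm1 in all 3 NCD regions and in 1 of the 3 FFD regions, a description of the counts of these probes and not of molar amounts.

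**Figure D3:**
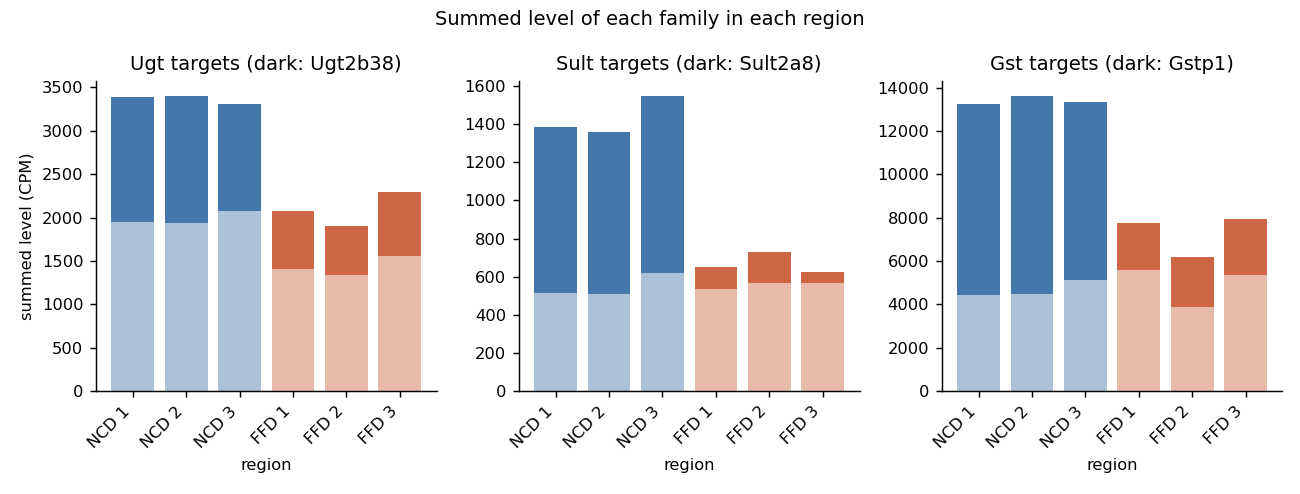
Summed level (CPM) of all targets of a family in each region, as stacked bars that start at 0, with the leading target of the family in the dark shade and all its other targets in the light shade. Without Sult2a8 the Sult sum, which is partly background, is level between the diets (548 against 557 CPM on average). Without Gstp1 the Gst sum overlaps, and without Ugt2b38 the Ugt sum is still lower in FFD (1987 ± 76.5 against 1434 ± 112 CPM).

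The 7 Mu class targets lie in one cluster on chromosome 3, from 107895854 to 108045179, and conjugate epoxides and other electrophiles. Gstm1 was at 1916, 1864 and 2033 CPM in NCD regions and 2679, 1545 and 2692 CPM in FFD regions. FFD region 2 was below all NCD regions and the other FFD regions above them, with a log2 change of 0.25 (SE 0.21, adjusted p 0.427).

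Gstm3 was at 63.7, 59.7 and 86.2 CPM in NCD regions and at 239, 57 and 82.7 CPM in FFD regions. FFD region 1 alone was high, and the log2 fold change of 0.84 (SE 0.36) had an adjusted p of 0.119. Without FFD region 1 the adjusted p was 0.955, without FFD region 2 it was 0.0235 and without FFD region 3 it was 0.0459, within a range of 0.0021 to 0.955 over all alternatives. Gstm2 showed the same region high, at 109 CPM against 47.1 and 35.7 CPM in the other FFD regions, with a log2 change of 0.14 (SE 0.29, adjusted p 0.778).

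Gstm5 and Gstm6 were the Mu targets whose regions did not overlap between the diets. Gstm5 was at 28.2, 28.2 and 34.5 CPM in NCD regions and 43.8, 40.2 and 35.3 CPM in FFD regions (log2 fold change 0.38, SE 0.15, adjusted p 0.0817), and was called higher in 5 of 18 alternatives. Gstm6 was at 45.7, 45 and 71.8 CPM against 44.2, 32.7 and 39.3 CPM (log2 fold change -0.51, SE 0.18, adjusted p 0.0619), with no call in the alternatives. For Gstm4 the log2 fold change was -0.18 (adjusted p 0.527) and for Gstm7 -0.31 (adjusted p 0.161).

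Alpha class enzymes handle lipid peroxidation products and steroids. Gsta3 was at 1213, 1245 and 1462 CPM in NCD regions and 1299, 993 and 1212 CPM in FFD regions, a log2 change of -0.16 (SE 0.17, adjusted p 0.532). Gsta4, which detoxifies 4-hydroxynonenal, had -0.26 (SE 0.13, adjusted p 0.177), and Gsta5, a target shared with Gsta2, had 0.12 (SE 0.17, adjusted p 0.639).

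One more alpha class target was found through the deposited annotation and not by its name. A target called Gm3776 is shared by Gm3776 and Gsta1, lies at chr9:78257129-78269166, and is not among the 57. Its levels were 23.8, 21.4 and 31.4 CPM in NCD regions, around the detection limit, and 101, 69.8 and 189 CPM in FFD regions. All FFD regions were above all NCD regions, and the log2 fold change was 2.20 (SE 0.29, adjusted p 0.000123 with edgeR). The call held in 18 of 18 alternatives, from 1.71 without FFD region 3 to 3.12 after background subtraction. So the count of 0 higher Gst targets holds for targets named Gst and not for every glutathione transferase gene on the panel; this target was singled out after its values were seen.

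Theta class targets Gstt1, Gstt2 and Gstt3, enzymes for small halogenated compounds among others, had log2 fold changes of 0.13, -0.08 and -0.17, with adjusted p-values of 0.561, 0.679 and 0.46. Gstz1, the maleylacetoacetate isomerase of tyrosine breakdown, was at 433, 472 and 570 CPM in NCD regions and 455, 477 and 501 CPM in FFD regions, a log2 change of -0.04 (SE 0.15, adjusted p 0.872). Gstk1 of mitochondria and peroxisomes had 0.13 (SE 0.15, adjusted p 0.601). Gsto1, which reduces dehydroascorbate, had -0.01 (SE 0.18, adjusted p 0.971). All of these targets were above the limit in every region.

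Gsto2, the second omega class enzyme, was at 21.4, 16.8 and 18.8 CPM in NCD regions and 16.4, 7.48 and 10 CPM in FFD regions. It passed the test with a log2 change of -0.77 (SE 0.24, adjusted p 0.0399), but no region exceeded the detection limit, and 5 of the 16 alternatives that tested it called it. Gstt4 was outside the filtered table and under the limit in all 6 regions.

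The antioxidant response element core was searched on both strands with the letters TGACNNNGC only. These letters were found in 3 of the 66 promoters, those of Gsta3, Gstm5 and Gstm7, and in 12.4% of all promoters. Other forms of the element were not searched, in the promoters of Gstp1 and Gstp2 or in any other. The counts therefore do not show which promoters lack the element, and the share was not tested. The matches of Gsta3 and Gstm5 are shown as 40-base windows because they set the match, in capitals, beside the values of an alpha and a Mu class target.
Gsta3, chr1:21240448-21240487, plus strand: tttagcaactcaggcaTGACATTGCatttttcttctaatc
Gstm5, chr3:107895796-107895835, plus strand: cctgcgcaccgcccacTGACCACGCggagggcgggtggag
None of Gsta3, Gstm5 and Gstm7 passed the test, and a window without these letters says nothing about the factor that binds them.

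**Figure D4:**
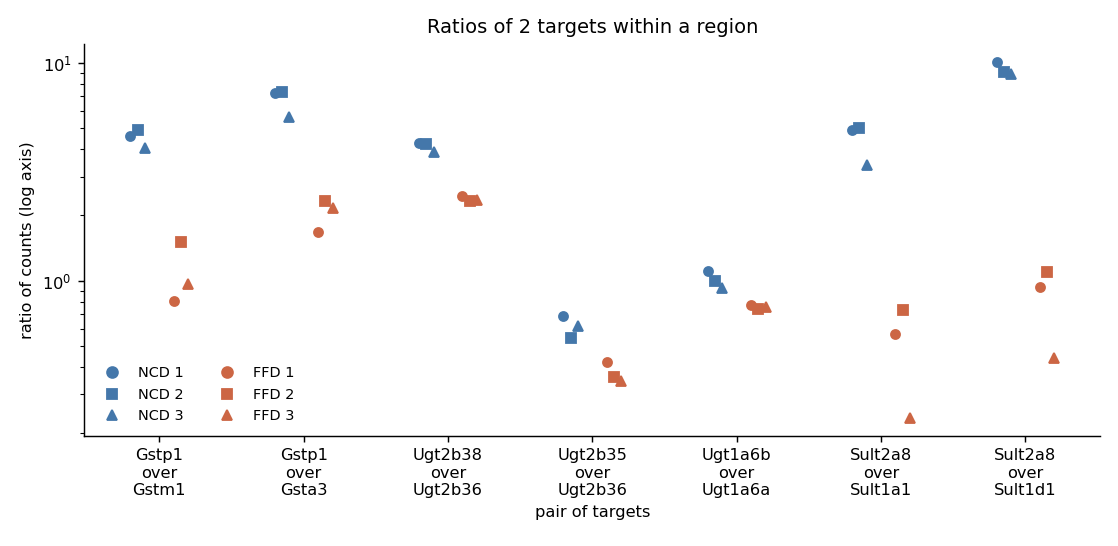
Ratio of the counts of 2 targets within each region (log axis), one column per pair, which needs no scaling between regions. In all 7 pairs the 3 FFD regions lie below the 3 NCD regions; the pairs were chosen after the values were seen, so this is a description with no test.

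Genes that feed, export or work beside these enzymes were counted from fixed lists. Among all genes tested 11.1% were called lower and 5.94% higher, and no list was tested against these shares. Among genes that supply UDP-glucuronic acid, Ugp2, which makes UDP-glucose, rose with a log2 change of 0.68 (SE 0.19, adjusted p 0.0226). Ugdh, which oxidizes UDP-glucose to the donor itself, did not pass, with 0.11 (SE 0.18, adjusted p 0.712). Of 8 genes of sulfate donor supply 1 fell, Papss2, a PAPS synthase, with -0.41 (SE 0.14, adjusted p 0.0486), and that call held in 3 of 18 alternatives. Of 11 glutathione supply genes 1 fell, Cth of cysteine synthesis, with -0.83 (SE 0.20, adjusted p 0.0122), while Gclc and Gclm, the subunits of the first enzyme of glutathione synthesis, had 0.27 (adjusted p 0.339) and 0.02 (adjusted p 0.942).

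A further list was drawn around the membrane-bound glutathione transferases, and not all of its genes are such transferases. Of its 7 tested genes 2 rose, Clic1 with 0.82 (SE 0.14, adjusted p 0.000857) and Mgst3 with 0.79 (SE 0.19, adjusted p 0.0114). Among 6 conjugate exporters Abcc6 and Abcc2 fell, with -0.62 (adjusted p 0.00369) and -0.49 (adjusted p 0.0411), and Abcg2 rose with 0.53 (adjusted p 0.0205). The Abcc2 call held in 5 of 18 alternatives, with adjusted p-values up to 0.686. Of 11 genes that split or process conjugates 1 rose and 3 fell. The riser was Gusb, the lysosomal beta-glucuronidase that removes glucuronic acid, with 0.94 (SE 0.14, adjusted p 0.000317). The fallers were Kyat1, a cysteine conjugate lyase, with -1.32 (adjusted p 0.000628), and Nat8f1 and Nat8, of the acetyltransferase group that finishes mercapturic acids, with -0.83 (adjusted p 0.0017) and -0.88 (adjusted p 0.00278).

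Of 10 other conjugating enzymes 2 rose and 3 fell. The histamine methyltransferase Hnmt rose by 1.03 on the log2 scale (adjusted p 0.000167), while Nnmt, the nicotinamide methyltransferase, and Gnmt, the glycine methyltransferase, had -1.09 (adjusted p 0.00624) and -0.85 (adjusted p 0.00847). Of 23 regulators of conjugating enzymes 2 rose and 6 fell. Bcl6, a repressor under growth hormone control in mouse liver, had -1.31 (SE 0.18, adjusted p 0.000216), Nfe2l2, which encodes NRF2, had 0.66 (SE 0.15, adjusted p 0.00654), and Hnf4a had -0.51 (SE 0.14, adjusted p 0.0207), a call that held in 7 of 18 alternatives. Nr1i2 and Nr1i3, the xenobiotic receptors PXR and CAR, did not pass, with 0.13 (adjusted p 0.66) and -0.26 (adjusted p 0.282).

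Nuclei and marker genes of several cell types moved with diet. The marker counts stand beside the same shares of all genes tested, 11.1% lower and 5.94% higher. NCD regions held 1747 to 1940 nuclei and FFD regions 1077 to 1264. Of 13 hepatocyte markers 6 fell and 0 rose, with Apob alone higher at an unadjusted p under 0.05 and DESeq2 calling 1 higher, a median log2 fold change of -0.63 and summed levels of 100130 to 139767 CPM in NCD against 55046 to 85605 CPM in FFD regions. Of 12 macrophage markers 7 rose and 1 fell, with sums of 722 to 891 against 1647 to 1964 CPM. The faller was Timd4, with a log2 fold change of -0.68 and a call that held in 3 of 18 alternatives. Clec4f, Marco, Vsig4 and Csf1r did not pass, with -0.00, -0.54, 0.39 and 0.41, so the rise was not shared by all macrophage markers. Of 10 stellate cell and fibroblast markers 7 rose, with sums of 491 to 534 against 856 to 1419 CPM. The sums were 452 to 473 against 377 to 516 CPM for endothelium, where Pecam1 and Clec4g were under the limit in all regions, and 131 to 161 against 279 to 1094 CPM for cholangiocytes, where Spp1 was the riser. Spp1 is also in the macrophage list, where 6 of the other 11 markers rose and the sums without it were 651 to 861 against 1011 to 1454 CPM. They were 167 to 227 against 156 to 178 CPM for lymphocytes and 148 to 168 against 137 to 147 CPM for neutrophils. The part of these shifts in the falls of the Ugt targets, Sult2a8 and Gstp1 and in the rise of Sult1d1 was not tested.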

How the data were processed

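Expected counts per target, as the authors deposited them after probe quality control, were used; they are whole for all but 4 targets and were rounded. The deposited filtered table holds 13099 of 19963 targets by a rule that is not given in the sources used here, and 1 cell differs between the tables; the filtered value was used. Targets that are no gene (12 in the full and 4 in the filtered table, 0.0145 to 0.0192% of counts) were left out. The deposited Q3 signal is these counts divided by each region's 75th percentile and multiplied by a constant shared by all regions. Recomputing it, with the constant taken from the data, gave a deviation of at most 0.281% over targets equal in both tables. Nuclei and deduplicated reads are counts per the file headers, while area and probes per target are other quantities per the file headers, the area with no unit stated. The submitters' processing notes name edgeR and GRCm38 without versions.

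The test was edgeR 4.0.16 quasi-likelihood under R 4.3.3 with 75th percentile scaling and no term besides diet, adjusted by Benjamini-Hochberg over 13095 genes at 0.05. Genes varied between regions of a diet by 12% (biological coefficient of variation). The SE was taken from the log2 fold change and its F statistic (size over the root of F). Alternatives used edgeR, limma 3.58.1 and DESeq2 1.42.0. The fits were also run on simulated counts, with the same spread for every gene and no common shift between diets. That run checks the code only and says nothing on the calls made here. Coordinates and promoters are RefSeq's for GRCm38.p6, matched by gene ID and symbol, and the Gstp promoters were compared by global alignment. The control without template was not used here.

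The members, lists and tests were chosen with earlier results of these data known. Every target past the threshold was named, with region values for the 4 smallest p per direction and family and for log2 changes of 1 or more. Targets not past it were named with values if above the detection limit in all 6 regions and others by group; Gstp3, Sult1b1, Sult1e1, Sult2a1, Sult3a1 and Ugt1a2 got values outside this rule, after these were seen. From each list at most 4 genes past the threshold were named by p; 1 gene that this rule picked is not reported here. Ugdh, Gclc, Gclm, Nr1i2 and Nr1i3 were named for their role after their values were seen. Single macrophage markers were also named after their values were seen.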

Additional observations from a re-analysis of the deposited data

How the results depend on the processing

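No paired analysis was possible because region numbers in the labels run from 1 to 6 with none used in both diets. Of the 12 called targets, Gstp1, Sult2a8, Ugt2b35 and Ugt2b38 kept their call in all 18 alternatives. The count of lower Ugt targets, 8 in the main analysis, was 4 with TMM scaling, 4 with DESeq2 size factors, 4 with the DESeq2 Wald test, 5 with total counts, 2 with negative probe scaling, and 2 with FFD region 3 as the only FFD region. That last setting was added after the data were seen and rests on 1 FFD region assumed to vary like the NCD regions. Leaving out 1 region in turn gave 4 (without NCD 2 or FFD 2) to 7 lower Ugt targets, 0 to 1 higher and 1 to 2 lower Sult targets, and 0 to 2 higher and 1 to 2 lower Gst targets. Without NCD 1, NCD 2 or FFD 2, or with FFD region 3 alone, 0 Sult targets were higher, and with the detection limit filter 2 Sult targets were lower. Higher Gst targets numbered 1 (Gstm5) with TMM, DESeq2 size factors or total counts and 7 with negative probe scaling (Gsta5, Gstk1, Gstm1, Gstm3, Gstm5, Gstp3 and Gstt1). Lower Gst targets numbered 1, Gstp1 alone, with TMM, DESeq2 size factors, total counts, negative probes, the DESeq2 Wald test, the detection limit filter, background subtraction or FFD region 3 alone. Ugt1a1 was at 0.01 (adjusted p 0.983, range over the alternatives 0.0282 to 0.983) with negative probe scaling, the only called target whose direction turned.

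Calls over all genes, 2237 in the main analysis, numbered 3838 with negative probe scaling, 1229 with the DESeq2 Wald test, 1425 after background subtraction, 1190 without NCD 1, 1013 without NCD 2, 1413 without FFD 2 and 817 with FFD region 3 alone. Against the main analysis the median of all genes moved by 0.10 with TMM or DESeq2 size factors, 0.11 with total counts, 0.19 with background subtraction and 0.39 with negative probes. The cause of these differences was not tested. Levels under the detection limit, as for most Sult targets, leave changes there unresolved.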
